A study of Rattus norvegicus with 6 samples.

Results

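The cytosolic heat shock genes described here are *Hsf1*, *Hspa8*, *Hspa4*, *Hsph1*, *Dnajb1*, *Bag3*, *Hsp90aa1*, *Hsp90ab1*, *Hspb1* and *Cryab*, which are HSF1 and cytosolic chaperones and co-chaperones. They were taken by symbol, and each of the 10 had 1 row among the 17315 gene rows of every sample. The samples were neural stem cells (NSCs) of the line HCN, which was isolated and cloned from the hippocampus of adult rats of the Fisher 344 strain. They had been transfected with a control duplex (siControl NSCs, 3 samples) or with 1 duplex against *Derl1* (siDerl1 NSCs, 3 samples). *Derl1* encodes Derlin-1, a membrane protein of the endoplasmic reticulum (ER) that helps to remove misfolded proteins. The cells of both groups were then kept for 2 days in quiescence medium, which held BMP4 at 50 ng/mL beside 10 ng/mL of bFGF. Samples were numbered 1 to 3 in each group, and what a number stands for, such as a culture or a day, is not given in the sources used here. The comparison asks whether the cytosolic chaperone genes, as opposed to those of the ER, differ when Derlin-1 is reduced.

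HSF1 is the transcription factor of the heat shock response. In unstressed cells it is held back by chaperones, and when misfolded proteins occupy these chaperones it forms trimers that bind repeated GAA and TTC units in the promoters of chaperone genes. HSP70 proteins, of which HSC70 (*Hspa8*) is the constitutive form, bind exposed hydrophobic stretches of client proteins in an ATP cycle that is started by J-domain proteins such as *Dnajb1* and reset by nucleotide exchange factors such as the HSP110 proteins (*Hspa4*, *Hsph1*) and *Bag3*. HSP90 proteins (*Hsp90aa1*, *Hsp90ab1*) act later, on kinases and receptors that are nearly folded, and small heat shock proteins (*Hspb1*, *Cryab*) hold unfolded proteins without using ATP.

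The promoters of the members, in the RefSeq table for the assembly GRCr8, show which of them carry letters that HSF1 is known to bind. The table holds 250 bases before to 50 bases after each start site, and 7 of the 10 members were in it (*Hsf1*, *Hsp90aa1* and *Cryab* were not). A pair of units with 2 bases between them, GAANNTTC or TTCNNGAA, was found in 5 of these 7 promoters, against 15.9% of the 33469 promoters in the table. A run of 3 units, GAANNTTCNNGAA or TTCNNGAANNTTC, was found in 2 of the 7, against 0.798% of all promoters. These letters read the same on both strands or are listed with their reverse, and a run of 3 units also holds 2 pairs. The windows below are in the direction of the gene, with the units and the bases between them in capitals, and they are shown because they separate the members by promoter.
Hspa8, 3 units, upstream: gcgagcgtGAAAGTTCCAGAAcgctgcgg
Hspa8, 3 units, near the start site: cggaacccTTCTGGAAGGTTCtaagacag
Hsph1, 3 units: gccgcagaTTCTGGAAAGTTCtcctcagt
Dnajb1, 2 units: cgggaggggcgGAAGGTTCtggagggctgg
Bag3, 2 units: ggatgggaccaGAAGTTTCtagccggccag
Hspb1, 2 units: cttcaactagaGAAGTTTCcagatgggggc

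The *Hspa8* windows lie at chr8:50080293-50080321 and chr8:50080451-50080479 on the plus strand, with the 3 units from base -213 to -201 and from -55 to -43 relative to the start site. The *Hsph1* window lies at chr12:10427324-10427352 on the plus strand, with its units from -36 to -24, and a separate pair lies from -105 to -98. The *Dnajb1* window lies at chr19:41431134-41431163 on the minus strand, with the pair shown from -11 to -4 and a second pair, not shown, from 18 to 25 after the start site. The *Bag3* window lies at chr1:192533317-192533346 on the plus strand, with its pair from -132 to -125. The *Hspb1* window lies at chr12:26432412-26432441 on the minus strand, with the pair shown from -129 to -122 and a second from -109 to -102. All of the units shown lie upstream of the start site, and the second pair of *Dnajb1* lies in the transcribed part. No pair or run was found in the 300-base sequences of *Hspa4* and *Hsp90ab1*. Among the ER chaperones, 1 of 14 promoters held a pair and 0 held a run of 3. Among the mitochondrial chaperones 3 of 8 held a pair and 2 a run, among the CCT chaperonin genes 3 of 8 and 1, and among HSP90 and its co-chaperones 4 of 13 and 1. The 2 mitochondrial runs belong to *Hspd1* and *Hspe1*, whose promoter sequences overlap on opposite strands. Their units are the same bases, counted for both genes. A match describes letters and is not a measured binding site.

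Levels are given as TPM, in which each gene's reads are corrected for transcript length and every sample has the same total, so that genes can be set beside each other. *Hspa8* was the most abundant member, with a mean of 1876 TPM over the 6 samples, and stood at rank 78 of the 10331 genes tested. It was followed by *Hsp90ab1* (1225 TPM), *Hsp90aa1* (885 TPM), *Cryab* (269 TPM), *Hspa4* (156 TPM), *Hsph1* (98.5 TPM), *Dnajb1* (64.2 TPM), *Hsf1* (47.3 to 52.8 TPM in single samples) and *Bag3* (a mean of 33.5 TPM). *Hspb1* was last, between 0 and 1.92 TPM. The ranges of neighbours in this order overlapped for *Cryab* and *Hspa4* only, where *Cryab* was the higher in 5 of 6 samples. The 10 members together held between 0.398% and 0.519% of the TPM of a sample, and *Hspa8*, *Hsp90aa1* and *Hsp90ab1* made up 83.4% to 87.7% of that. These 3 genes have close copies in the genome, so reads may be split between copies and their levels are uncertain to that extent.

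**Figure D1:**
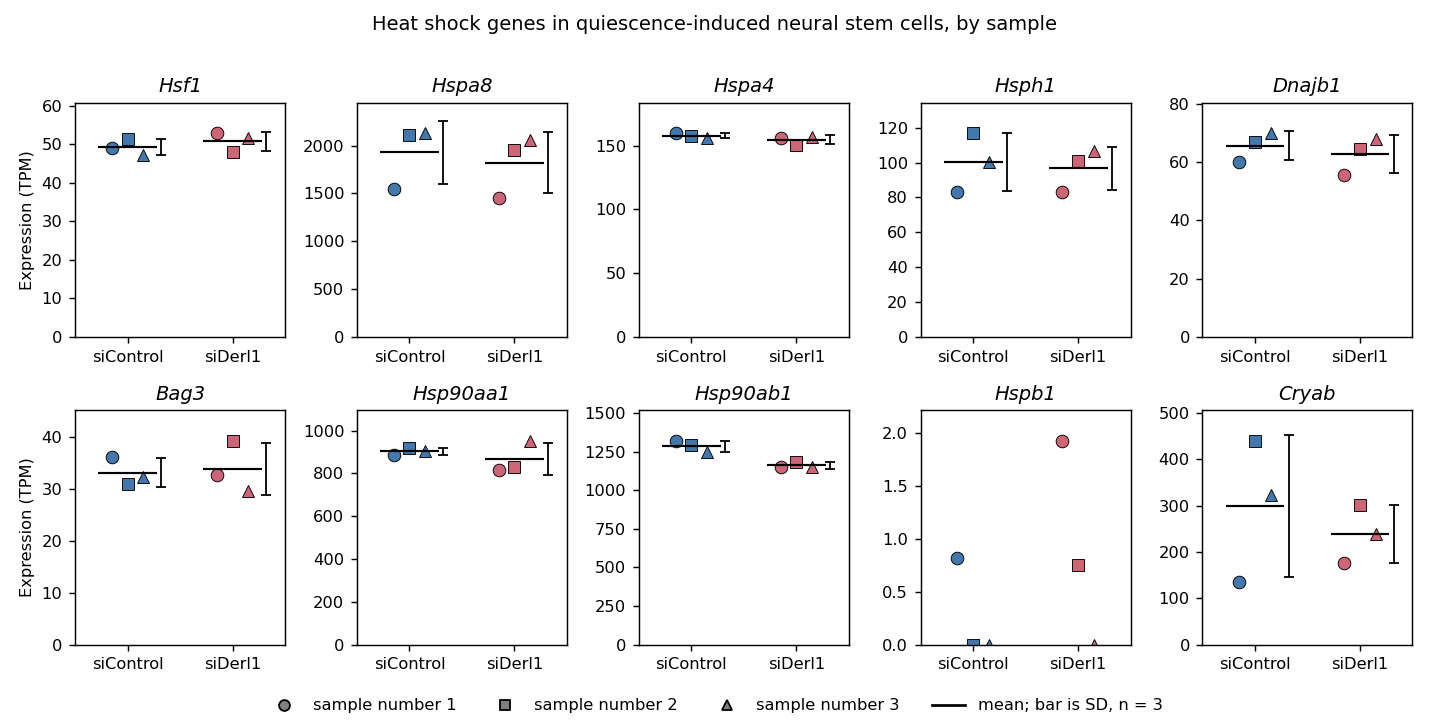
Expression of the 10 heat shock genes in TPM (vertical axes, each from 0) in the 3 siControl and 3 siDerl1 samples, with the symbol giving the sample number, a line at the group mean and a bar for the SD (n = 3; none for *Hspb1*). The 2 groups separate only for *Hsp90ab1*, while both samples numbered 1 lie lowest for *Hspa8*, *Hsph1*, *Dnajb1* and *Cryab*.

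The inducible HSP70 genes were low in the same samples. *Hspa1b* lay between 3.88 and 7.07 TPM and *Hspa1a*, a near-identical copy with which it shares reads, between 0.41 and 0.76 TPM. *Hspa8* was 277 to 398 times as high as *Hspa1b*.

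The targeted gene was measured first. *Derl1* was at 122, 132 and 128 TPM in siControl samples 1, 2 and 3 and at 44.9, 70.8 and 74.0 TPM in siDerl1 samples 1, 2 and 3. All siDerl1 samples were below all siControl samples, with means of 127 ± 5.19 and 63.2 ± 16.0 TPM (SD, n = 3). The log2 difference, here and below on the log2(TPM + 1) scale, was -1.03 (SE 0.18). In limma over all genes tested this had an adjusted p of 0.497, and in the fit with the sample number as a block the adjusted p was 0.00884. The exact two-sided permutation test gave 0.1, the smallest value that 3 against 3 samples allow.

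Of the 10 members, 9 had a mean of at least 1 TPM and were tested between siDerl1 and siControl NSCs, and 0 of these 9 had an adjusted p under 0.05, where 0% of all genes tested had one. The limma adjusted p of the 9 members lay between 0.704 and 0.983, and 1 member had an unadjusted p under 0.05, with siDerl1 lower, against 6.7% of all genes in both directions and 4.03% with siDerl1 lower. The log2 differences ran from -0.20 to 0.05 with a median of -0.06, beside a median of -0.02 over all genes tested. They were below 0 for 7 members and above 0 for 2, where 5657 of all 10331 genes were below 0. The 95% interval of 8 of the 9 lay within 1.5-fold of no difference in both directions, and *Cryab* was the exception. With the sample number as a block, 0 of the 9 were called, against 0.552% of all genes, and without number 1 of both groups 0 were called, against 0.338%. In bulk RNA, fewer cells of a type and less RNA per cell cannot be told apart.

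**Figure D2:**
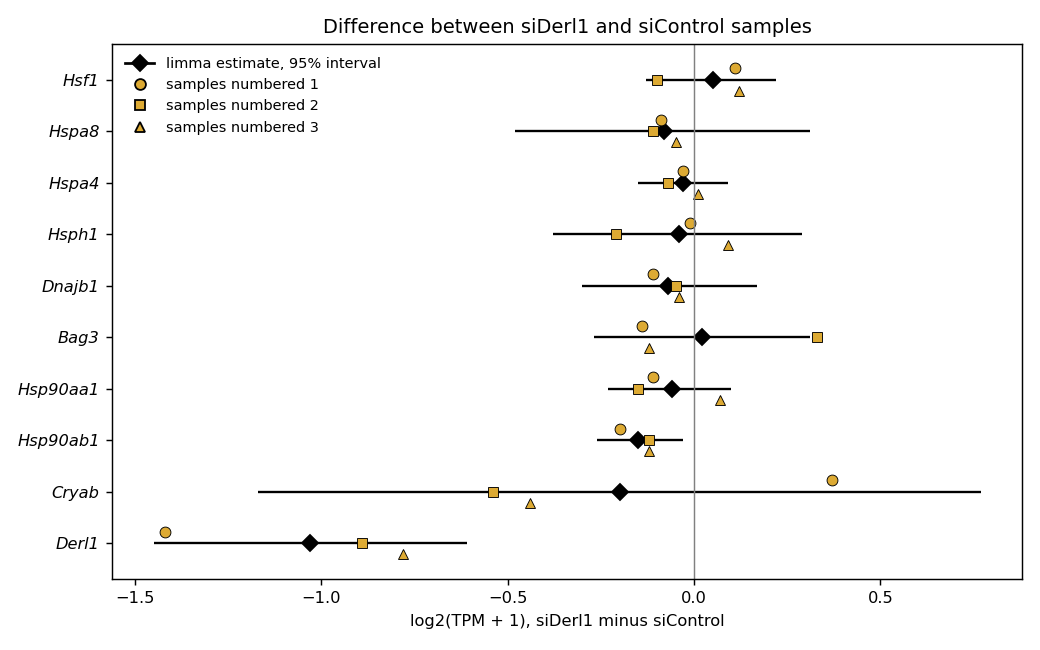
Difference between siDerl1 and siControl NSCs on the log2(TPM + 1) scale (horizontal axis) for the 9 members tested and *Derl1*. Diamonds are limma estimates with their 95% intervals, and the small symbols are the differences between the siDerl1 and the siControl sample of the same number. The interval leaves 0 for *Hsp90ab1* and *Derl1*, and the interval of *Cryab* (-1.17 to 0.77) is the widest.

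The regulator *Hsf1* was nearly level. It was at 48.9, 51.4 and 47.3 TPM in siControl samples 1 to 3 and at 52.8, 48.0 and 51.6 TPM in siDerl1 samples 1 to 3. The groups overlapped, and the highest of the 6 values was 1.12 times the lowest. The means were 49.2 ± 2.1 and 50.8 ± 2.48 TPM (SD, n = 3), a log2 difference of 0.05 (95% interval -0.13 to 0.22, limma adjusted p = 0.947), which corresponds to a fold between 0.913 and 1.17. Much of the control of HSF1 is known to act on the protein, which TPM do not measure. *Hsf2*, a second heat shock factor, was between 46.4 and 62.5 TPM with a log2 difference of 0.09 (adjusted p = 0.934), and *Hsf4*, the factor of the lens, was between 0.29 and 1.35 TPM.

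*Hspa8* was at 1545, 2114 and 2128 TPM in siControl samples 1 to 3 and at 1455, 1959 and 2056 TPM in siDerl1 samples 1 to 3. The sample numbered 1 was the lowest in both groups, and the groups overlapped. The means were 1929 ± 333 and 1823 ± 323 TPM (SD, n = 3), with a log2 difference of -0.08 (95% interval -0.48 to 0.31, adjusted p = 0.953). Between samples of the same number the differences were -0.09, -0.11 and -0.05. With the block, which removes the spread between numbers, the interval narrowed to -0.17 to 0.01 and the adjusted p was 0.355.

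The HSP110 genes varied unequally across samples. *Hspa4* was at 160, 158 and 156 TPM in siControl samples 1 to 3 and at 156, 151 and 157 TPM in siDerl1 samples 1 to 3, with the highest value 1.06 times the lowest. Its log2 difference was -0.03 (95% interval -0.15 to 0.09, adjusted p = 0.949). *Hsph1* was at 83.4, 117 and 100 TPM in siControl samples 1 to 3 and at 82.9, 101 and 107 TPM in siDerl1 samples 1 to 3, again lowest in the samples numbered 1. Its log2 difference was -0.04 (95% interval -0.38 to 0.29, adjusted p = 0.968). The ratio of *Hsph1* to *Hspa4* was 0.523 and 0.531 in the samples numbered 1 and between 0.643 and 0.740 in the other 4.

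The co-chaperones that start and reset the HSP70 cycle did not separate by siRNA either. *Dnajb1* was at 60.2, 67.1 and 69.9 TPM in siControl samples 1 to 3 and at 55.6, 64.6 and 68.1 TPM in siDerl1 samples 1 to 3. It was lower in siDerl1 for every number, by 0.11, 0.05 and 0.04 on the log2 scale, and the groups overlapped (log2 difference -0.07, 95% interval -0.30 to 0.17, adjusted p = 0.936). In all, 3 members (*Dnajb1*, *Hspa8* and *Hsp90ab1*) were lower in siDerl1 for every number, where 22.1% of all genes were. No member was higher in siDerl1 for every number, where 15.8% of all genes were. *Bag3*, which links HSP70 to autophagy and to small heat shock proteins, was at 36.2, 31.0 and 32.2 TPM in siControl samples 1 to 3 and at 32.7, 39.2 and 29.5 TPM in siDerl1 samples 1 to 3. Its lowest and its highest value both belonged to siDerl1 samples (log2 difference 0.02, 95% interval -0.27 to 0.31, adjusted p = 0.983).

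The 2 cytosolic HSP90 genes differed in how well the groups separated. *Hsp90ab1*, the constitutive form, was at 1321, 1293 and 1249 TPM in siControl samples 1 to 3 and at 1151, 1187 and 1149 TPM in siDerl1 samples 1 to 3. All siDerl1 values were below all siControl values, and the mean went from 1288 ± 36.2 to 1163 ± 21.4 TPM (SD, n = 3), a ratio of 0.903. The log2 difference was -0.15 (SE 0.05, 95% interval -0.26 to -0.03), with an unadjusted p of 0.0206 and an adjusted p of 0.704 in limma, 0.00577 and 0.15 with the block. It was not called in either fit. Groups that do not overlap, with siDerl1 lower, were found for 8.52% of all genes and for this 1 of the 9 members. No member had siDerl1 values above all siControl values, where 5.09% of all genes did. *Hsp90aa1*, the inducible form, was at 886, 919 and 904 TPM in siControl samples 1 to 3 and at 818, 829 and 952 TPM in siDerl1 samples 1 to 3. Its siDerl1 values lay on both sides of the siControl range (log2 difference -0.06, 95% interval -0.23 to 0.10, adjusted p = 0.909). The ratio of *Hsp90aa1* to *Hsp90ab1* was 0.670 to 0.724 in siControl samples and 0.698 to 0.828 in siDerl1 samples.

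Of the small heat shock proteins, 1 was abundant and 1 was almost absent. *Cryab*, which encodes alpha-B-crystallin, was at 136, 439 and 322 TPM in siControl samples 1 to 3 and at 176, 301 and 238 TPM in siDerl1 samples 1 to 3. It had the widest spread of the members tested, with the highest value 3.23 times the lowest and both samples numbered 1 below the other 4. The means were 299 ± 153 and 238 ± 62.9 TPM (SD, n = 3), and the log2 difference was -0.20 (95% interval -1.17 to 0.77, adjusted p = 0.953), so that folds between 0.443 and 1.70 lie in the interval. The difference was 0.37 between the samples numbered 1 and -0.54 and -0.44 between those numbered 2 and 3. Without number 1 of both groups it was -0.49 (SE 0.15, adjusted p = 0.331). *Hspb1*, which encodes HSP27, was at 0.82, 0 and 0 TPM in siControl samples 1 to 3 and at 1.92, 0.75 and 0 TPM in siDerl1 samples 1 to 3, and was not tested.

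Some members differed across the sample numbers. In a moderated F test over the 3 numbers, fitted with the siRNA group, 3 of the 9 members had an adjusted p under 0.05 (33.3%), against 10.6% of all genes tested. They were *Hspa8* (F = 61.4, adjusted p = 0.00051), *Cryab* (F = 25.6, adjusted p = 0.00573) and *Hsph1* (F = 11.3, adjusted p = 0.0394). Both samples numbered 1 lay below the other 4 for these 3 genes and for *Dnajb1*, that is for 4 of the 9, where 17.0% of all genes did. *Dnajb1* missed the threshold (adjusted p = 0.143). None of the 9 had both samples numbered 1 above the other 4, against 15.7% of all genes, while the untested *Hspb1* had its values of 0.82 and 1.92 TPM there and 0 to 0.75 TPM in the others.

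The size of the difference was set side by side for the 2 groups. For *Hspa8* the mean of samples 2 and 3 was 1.37 times sample 1 in siControl and 1.38 times in siDerl1 NSCs. For *Hsph1* these ratios were 1.3 and 1.25. For *Cryab* they were 2.80 and 1.54, and whether the ratio differed between the groups was not tested. *Hsf1* had an F of 0.108 (adjusted p = 0.946) and *Hspa4* an F of 0.159 (adjusted p = 0.922). These calls depended on the settings: with no filter on low values *Hspa8* alone was past the threshold (adjusted p = 0.0107), and with no intensity trend 0 of the members were, *Hspa8* having an adjusted p of 0.0776.

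**Figure D3:**
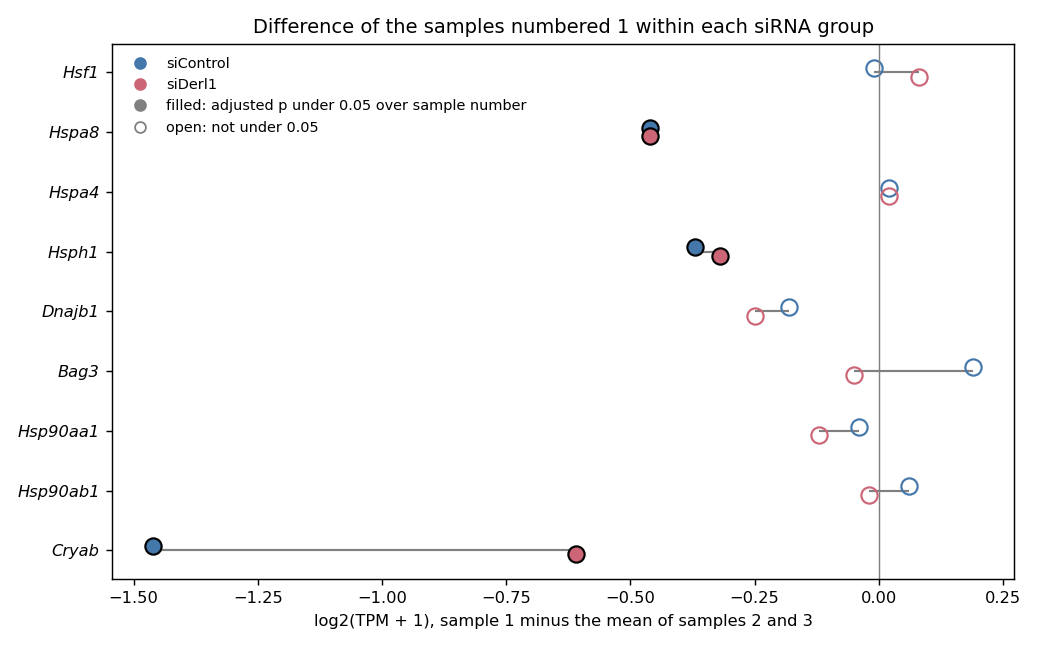
Difference of the sample numbered 1 from the mean of samples 2 and 3 within each siRNA group, on the log2(TPM + 1) scale (horizontal axis), for the 9 members tested. Filled points mark genes with an adjusted p under 0.05 in the F test over the sample number. *Hspa8* stands at -0.46 in both groups, *Hsph1* at -0.37 and -0.32, and *Cryab* at -1.46 in siControl and -0.61 in siDerl1, while *Hsf1*, *Hspa4* and *Hsp90ab1* stay within 0.1 of 0.

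The samples numbered 1 stood apart as a whole. The first principal component, with 55.7% of the variance, set both of them apart from the other 4. The second, with 16.2%, separated the siRNA groups, with siControl samples from -11.9 to -8.15 and siDerl1 samples from 6.85 to 12.41. Cell type markers moved with the number too, with 10.6% of all genes called as above. All 6 NSC markers were expressed at a mean of at least 1 TPM, and 3 were called (*Sox2*, *Vim* and *Fabp7*), and the sum of the 6, most of which is *Vim*, was 3973 and 4394 TPM in the samples numbered 1 and 5499 to 5817 TPM in the others. The median difference of the samples numbered 1 over the 6 genes was 0.17 in siControl and 0.06 in siDerl1 NSCs on the log2 scale. *Vim* was lower in the samples numbered 1 (3008 and 3386 against 4644 to 5044 TPM), while *Fabp7* was higher in them (196 and 220 against 97.2 to 132 TPM), and so was *Sox2* against the mean of samples 2 and 3 (by 0.13 and 0.22 on the log2 scale). Of the 7 astrocyte markers 5 were tested and 3 called (*Gfap*, *S100b* and *Slc1a3*), with *Aqp4* and *Aldh1l1* under 1 TPM. Their sum was highest in the sample numbered 1 of each group, at 1433 TPM in siControl (1205 and 1281 TPM in the others) and at 1684 TPM in siDerl1 (1387 and 1289 TPM in the others). *S100b* was higher in the samples numbered 1 (679 and 708 against 445 to 467 TPM). *Gfap* was higher in sample 1 of each group, at 47.0 against 27.7 and 28.9 TPM in siControl and at 66.3 against 47.5 and 45.3 TPM in siDerl1. *Slc1a3* was lower in the samples numbered 1 (52.1 and 47.9 against 69.7 to 83.5 TPM). The median difference of the samples numbered 1 over the 5 genes was -0.03 in siControl and 0.19 in siDerl1 NSCs. *Gfap* was also called higher in siDerl1 NSCs with the block (log2 difference 0.62, limma adjusted p = 0.0219) and without number 1 of both groups (adjusted p = 0.0406). Of the 8 markers of the oligodendrocyte lineage 6 were tested and 2 called (*Sox10* and *Pdgfra*), with *Mog* at 0 in every sample. Their sum was highest in the samples numbered 1, at 2128 and 2287 TPM against 1759 to 2031 TPM in the others. Neuronal markers summed to 117 to 144 TPM with 0 called, and 6 of 7 microglia markers were under 1 TPM in every sample. The part of these markers in the differences between numbers or siRNA groups was not tested.

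The wider families were then read from fixed lists that include the members. For siDerl1 against siControl NSCs, 0 of the 84 genes tested of the 92 in the lists had an adjusted p under 0.05, by limma without or with the block, and 5 had an unadjusted p under 0.05 without it, where 6.7% of all genes did. In the lists, 10 genes had siDerl1 values below all siControl values and 1 had them above, beside 8.52% and 5.09% of all genes. The list medians lay between -0.10 and 0.09. For the CCT chaperonin, the ring that folds actin and tubulin, the estimates of all 8 subunits were below 0, with a median of -0.06, beside the 5657 of 10331 genes below 0. *Cct8* was at 369, 355 and 353 TPM in siControl and at 344, 302 and 325 TPM in siDerl1 samples 1 to 3 (log2 difference -0.15, adjusted p = 0.74), and *Cct3* was also lower in all siDerl1 samples (-0.09, adjusted p = 0.787).

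Among HSP90 and its co-chaperones the estimates of 10 of 14 genes were below 0, with a median of -0.06, to be read beside the same share of all genes. *Unc45a*, which encodes a co-chaperone of HSP90 for myosin, was at 54.0, 58.6 and 54.7 TPM in siControl and at 44.9, 46.8 and 45.9 TPM in siDerl1 samples 1 to 3. These groups did not overlap, and the log2 difference of -0.28 (SE 0.07) had an adjusted p of 0.704. *Fkbp4*, an immunophilin of steroid receptor complexes, did not overlap either (183, 183 and 181 against 173, 175 and 177 TPM, log2 difference -0.06, adjusted p = 0.86). *Stip1*, which joins HSP70 to HSP90, had a log2 difference of 0.01 (adjusted p = 0.972).

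Of the 10 cytosolic J-domain genes, 2 had siDerl1 values below all siControl values, where 8.52% of all genes did. *Dnaja2* had a log2 difference of -0.10 (adjusted p = 0.795) and *Dnajc7* one of -0.09 (adjusted p = 0.769). *St13*, which encodes the HSP70-interacting protein Hip, was the gene of these lists with siDerl1 values above all siControl values, at 330, 344 and 338 against 349, 366 and 361 TPM (log2 difference 0.09, adjusted p = 0.772).

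Across the sample numbers, 19 of the 84 genes were called, where 10.6% of all genes were. Of the 4 small heat shock proteins tested, 3 were called, all with both samples numbered 1 below the other 4. *Hspb8*, a partner of BAG3 in chaperone-assisted autophagy, was at 56.4, 165 and 211 TPM in siControl and at 80.3, 190 and 232 TPM in siDerl1 samples 1 to 3 (F = 198, adjusted p = 1.3e-05). *Hspb6* was at 38.4, 49.4 and 50.8 TPM in siControl and at 31.97, 50.2 and 49.1 TPM in siDerl1 samples 1 to 3 (F = 16.2, adjusted p = 0.0175). *Cryab* was the third. *Hspb7* was between 1.17 and 3.97 TPM and was not called (adjusted p = 0.355), and *Cryaa* and *Hspb3* were listed at 0 in every sample.

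In the other cytosolic lists few genes were called by number. Among HSP70 and HSP110 genes these were *Hspa8* and *Hsph1*, 2 of 7 tested. No gene was called among the 14 of HSP90 and its co-chaperones, the 10 J-domain genes, the 8 CCT subunits and the 3 heat shock factors and regulators tested. *Bag6*, which hands misfolded membrane proteins to the proteasome, was higher in the samples numbered 1, at 190 and 185 TPM against 149 to 166 TPM (F = 10.9, adjusted p = 0.0422). *Hspe1*, the mitochondrial HSP10, was also higher in them, at 293 and 306 TPM against 241 to 247 TPM (F = 17.3, adjusted p = 0.0151).

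The ER chaperones are the longest list, and 11 of the 18 were called by number, where 10.6% of all genes were, and 10 of these had both samples numbered 1 below the other 4. *Hspa5*, the HSP70 of the ER lumen, was at 311, 474 and 470 TPM in siControl and at 272, 425 and 440 TPM in siDerl1 samples 1 to 3 (F = 89.0, adjusted p = 0.00016). Its samples 2 and 3 were 1.52 and 1.59 times sample 1, beside 1.37 and 1.38 for *Hspa8*. The median difference of sample 1 over the 18 genes was -0.29 in siControl and -0.31 in siDerl1 NSCs, while over the 9 cytosolic members it was -0.04 and -0.12. For siDerl1 against siControl the ER list had a median of -0.10 with 0 of 18 called. *Hyou1*, an HSP110 of the ER, had the lowest value of the lists (-0.34, SE 0.11, adjusted p = 0.704, 0.0535 with the block). Of the other ER genes, *Dnajb9* (-0.29, adjusted p = 0.733) and *Canx* (-0.06, adjusted p = 0.867) also had groups that did not overlap.

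**Figure D4:**
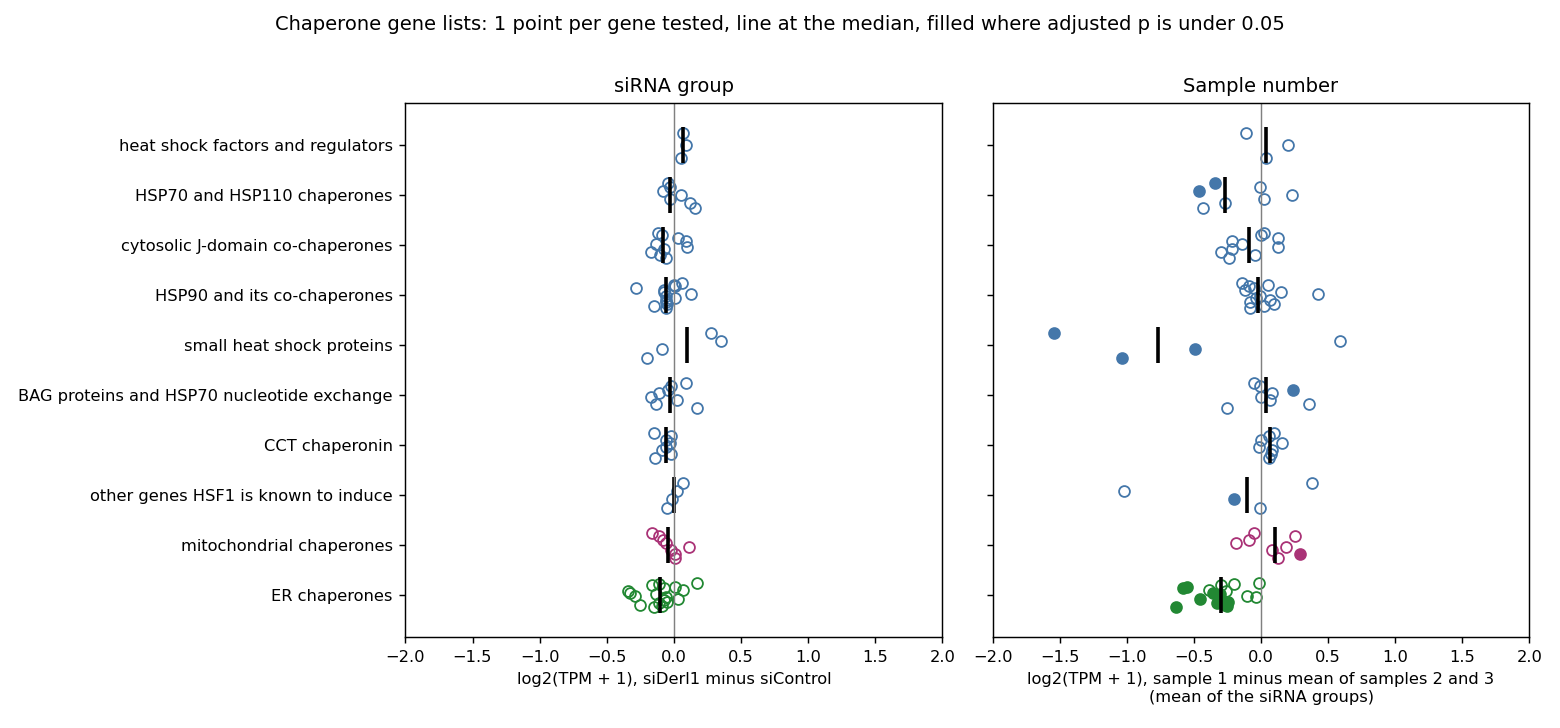
Each point is 1 gene tested of a chaperone list (rows), with the list median as a line and filled points for an adjusted p under 0.05. The left panel gives siDerl1 minus siControl and the right panel sample 1 minus the mean of samples 2 and 3, averaged over both groups, on the log2(TPM + 1) scale. Cytosolic lists are blue, mitochondrial chaperones magenta and ER chaperones green, and no point is filled on the left while 19 different genes are filled on the right.

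The genes with the most similar profiles were found by the root mean square difference of log2(TPM + 1), each gene centred over the 6 samples, among all genes tested. For *Hspa8* they were *Sec61b* (0.0221), a subunit of the ER translocon, *Magi3* (0.029) and *Dclk2* (0.0308). *Sec61b* was at 251, 340 and 339 TPM in siControl and at 239, 310 and 323 TPM in siDerl1 samples 1 to 3, lowest in the samples numbered 1 as *Hspa8* was. For *Hsf1* they were *Mis18a* (0.0161), *Fbxo3* (0.0194) and *Cdk8* (0.022), which like *Hsf1* varied little. For *Hspb1*, *Shc2* (0.134) and *Rgs8* (0.146) were among the 3 nearest, at larger distances than for *Hspa8* and *Hsf1*. The *Hspb1* profile rests on values near the floor, from 0 to 1.92 TPM. These are descriptions over 6 samples, which share the siRNA groups and the sample numbers.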

How the data were processed

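Total RNA of the 6 samples was made into directional poly(A) libraries. According to the paper's methods and the submitters' processing notes, the authors used Trimmomatic 0.39 for trimming, STAR 2.7.3a for mapping to rn6 and RSEM 1.3.2 for quantification. The deposited values are TPM with 2 decimals, which sum to the same total in every sample within rounding. Such shares hold no read numbers, so sequencing depth is unknown and counting errors were not given. Between 11641 and 11808 genes per sample were above 0. The authors tested with edgeR 3.28.1 on values not used here.

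TPM were set on a log2(TPM + 1) scale, and 10331 genes whose mean TPM reached 1 were fitted with limma 3.58.1 in R 4.3.3 (lmFit, eBayes with an intensity trend, Benjamini-Hochberg over all genes tested, threshold 0.05). The main fit had the siRNA group only, and the sample number was tested by a moderated F test beside the group. The exact tests used SciPy 1.17.1. The fits were run on simulated data. Those for the main fit held no differences between sample numbers, unlike these samples. They therefore do not show what share of true changes the main fit would call here. The labels and methods do not state separate cultures for the samples, so p-values measure the spread between these samples, which may be technical. Median-of-ratios factors lay between 0.9898 and 1.0161.

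Whether numbers pair the samples was checked by the deviations from the group means, across genes. These correlated at 0.70, 0.35 and 0.51 between samples of the same number. Samples 2 and 3 of different groups also correlated (0.34 and 0.25). Deviations within a group sum to 0, so samples 2 and 3 tend to correlate once number 1 stands apart. The check therefore links the samples numbered 1 and does not establish a pairing of numbers 2 and 3.

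The members and lists were chosen with earlier results of these data known. Named genes are the members, *Derl1*, up to 3 genes per list whose groups did not overlap with the smallest p, list genes called in either test, and the 3 nearest profiles to *Hsf1*, *Hspa8* and *Hspb1*. *Hsf2*, *Hsf4*, *Hspa1a*, *Hspa1b*, *Hspb7* and *Stip1* were added after their values were seen. A few of the genes selected are not reported here, and *Dedd2* was not analysed here. Promoters were taken from the RefSeq table of GRCr8 and not from rn6. Alternatives were a pseudocount of 0.1, no filter, a minimum mean of 5 TPM, scaling by median-of-ratios, no intensity trend, the block, no group term (sample number only) and each sample left out in turn, and 3 combinations were added after seeing the data.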

Additional observations from a re-analysis of the deposited data

How the results depend on the processing

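Under every alternative run, 0 of the members and 0 genes of the chaperone lists were called for siDerl1 against siControl NSCs. Over all genes 0 were called without the block (692 had an unadjusted p under 0.05), 57 with the sample number as a block, 35 without number 1 of both groups, 2 when the block was used without a filter and 0 when it was used without an intensity trend, the last 3 settings being chosen after seeing the data. In limma the block also brought *Derl1* past the threshold (-1.03, adjusted p = 0.00884), as did leaving out number 1 of both groups (-0.83, adjusted p = 0.00545). The block without a trend (adjusted p = 0.229) or without a filter (0.104) did not. The block changed no call of a member. With each sample left out in turn, *Derl1* ranged from -1.16 to -0.80 and the median of the members from -0.13 to 0.02 (highest without siDerl1 sample 1). The sign turned for *Hspa8* (from -0.23 to 0.07, highest without siDerl1 sample 1), *Hsph1* (from -0.17 to 0.07, highest without siControl sample 2), *Dnajb1* (from -0.13 to 0.02, highest without siDerl1 sample 1), *Cryab* (from -0.69 to 0.15, highest without siControl sample 2) and *Bag3* (from -0.09 to 0.11, lowest without siDerl1 sample 2), and *Hsp90ab1* stayed between -0.17 and -0.13.

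Across the sample numbers the count over all genes of 1092 became 591 with no filter, 252 with no intensity trend and 532 with no group term, and the count of members went from 3 to 1 with no filter and to 0 with no trend. *Hsph1* also missed the threshold with median-of-ratios scaling (adjusted p = 0.0514) and with no group term (0.0863). Depth is unknown, and 3 samples per group limit the precision.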
